A study of Mus musculus with 10 samples.

Results

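The lipid droplet coat and regulator genes encode proteins that cover, build, fuse or guard the fat droplets of a cell, and all 10 of them (Plin2, Plin3, Plin4, Plin5, Cideb, Cidec, Fitm1, Fitm2, G0s2 and Hilpda) were found by name among the 19414 genes of the deposited table. Their mRNA was measured by poly-A selected bulk RNA sequencing in livers from 10 HET3 females, outbred-like mice that descend from a cross of several inbred strains and so differ genetically from each other. The mice LD_405, LD_406, LD_442, LD_513 and LD_515 were fed a Longevity diet, and SD_403, SD_500, SD_501, SD_502 and SD_646 a standard diet. Feeding lasted 5 months in both groups, and it is unclear from the labels whether the mice were 25 months old when feeding began or when it ended. The labels name no other treatment or allele, and no cage, batch, fasting state or hour of collection. Nothing pairs a mouse of 1 diet with a mouse of the other.

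A lipid droplet is a core of triglyceride and sterol ester inside a single layer of phospholipid, and the perilipins (Plin genes) coat that layer and control how lipases reach the core. The FIT proteins (Fitm genes) act in the endoplasmic reticulum where droplets form, and the CIDE proteins let lipid pass between droplets that touch, or onto lipoproteins. G0S2 and HILPDA bind the triglyceride lipase ATGL (encoded by Pnpla2) and inhibit it. In liver, droplets store fatty acids that arrive during fasting or from the diet, and several of these genes are known targets of the fatty acid sensor PPAR-alpha.

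The upstream sequences of 3 perilipin genes are printed because Plin5 and Plin4 lie next to each other and had no overlap between the diets, while Plin2 is the perilipin with the highest level per length. Each is the 250 bases before the annotated start (for Plin5 the first-listed of 2), from RefSeq on GRCm38.p6, 5′ to 3′ along the gene, with capitals for the hexamer AGGTCA on either strand, the core letters that nuclear receptors such as PPAR-alpha bind in pairs. Plin5 lies at chr17:56117549-56117798, Plin4 at chr17:56109783-56110032 and Plin2 at chr4:86670060-86670309, all on the minus strand.
Plin5: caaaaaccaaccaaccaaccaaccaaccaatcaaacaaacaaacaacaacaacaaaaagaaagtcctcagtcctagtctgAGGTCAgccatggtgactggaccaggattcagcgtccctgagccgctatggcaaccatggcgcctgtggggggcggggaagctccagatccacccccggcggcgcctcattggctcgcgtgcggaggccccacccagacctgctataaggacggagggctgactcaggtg
Plin4: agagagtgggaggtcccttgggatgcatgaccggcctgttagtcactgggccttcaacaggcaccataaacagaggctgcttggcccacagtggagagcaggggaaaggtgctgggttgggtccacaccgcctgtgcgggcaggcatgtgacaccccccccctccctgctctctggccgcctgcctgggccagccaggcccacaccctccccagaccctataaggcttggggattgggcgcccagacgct
Plin2: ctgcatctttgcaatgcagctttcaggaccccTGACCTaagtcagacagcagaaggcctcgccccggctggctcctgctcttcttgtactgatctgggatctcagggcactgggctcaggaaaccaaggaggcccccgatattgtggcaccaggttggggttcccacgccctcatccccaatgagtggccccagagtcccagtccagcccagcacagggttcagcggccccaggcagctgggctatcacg
The hexamer stood once in the Plin5 window (170 to 165 bases before the start) and once, on the other strand, in the Plin2 window (218 to 213 bases before it), and the Plin4 window held none. Of all 32851 upstream windows of that length, 14.0% held it. A direct repeat of AGGTCA with any 1 base between the copies occurred in 0.0335% of all windows and in none of the 13 windows of the 10 genes, and the looser repeat, with AGGNCA for each copy, in 0.338% and likewise in none. The letters ACGTG, the core that hypoxia-inducible factors bind, were found in 16.6% of windows and among these genes at 1 of the Hilpda starts (43 to 39 bases before it). These are matches of letters, and no binding was measured.

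Levels are in CPM, the count of a gene per 1000000 counts in its library, and a gene is said to have risen or fallen only when limma, fitted to log2(CPM + 0.1) over the 13157 genes that averaged 1 CPM or more, gave a Benjamini-Hochberg adjusted p under 0.05. All 10 genes passed that level filter. Cidec, with a mean of 1.67 CPM, did so only through the Longevity diet (2.87 CPM, against 0.483 CPM on the standard diet). Log2 differences are Longevity diet minus standard diet, ± values are SD over 5 mice, and positions are on mm39. Of 12 hepatocyte markers 11 were found, and Tf was not analysed here. Alb stood at 124794 ± 20701 CPM on the Longevity diet and 79126 ± 19773 CPM on the standard diet (limma adjusted p = 0.0831). Cps1, a urea cycle enzyme, was the 1 marker of that list that passed, and it fell to 830 ± 251 CPM on the Longevity diet, against 1598 ± 263 CPM on the standard diet (limma adjusted p = 0.0376).

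Plin5 was the member that rose on the Longevity diet, and its neighbour Plin4 was the only other whose values did not overlap between the diets. Cidec, G0s2, Fitm1 and Fitm2 had higher means without passing the threshold, Plin2, Cideb and Hilpda differed little against their spread, and Plin3 was the 1 gene with a lower mean. So 1 of 10 rose and 0 fell, where 1.89% of all genes tested passed, 0.661% by rising and 1.23% by falling. The log2 difference was above 0 for 9 of the 10 and for 39.6% of all genes tested. The median log2 difference was 0.87 over the 10 genes and -0.11 over all genes tested. An unadjusted p under 0.05 was reached by 7 of the 10 (Plin3, Plin4, Plin5, Cidec, Fitm1, Fitm2 and G0s2), against 17.5% of all genes tested. Of those 7, 6 were higher on the Longevity diet (5.92% of all genes tested) and 1 was lower (11.6%). Ranges that stayed apart were seen for 2 of the 10 and for 5.50% of all genes tested, with 2 higher on the Longevity diet (2.01%) and 0 lower (3.49%). The genes were chosen with results of these data known, so these shares are a description. Cidec is among the 9, among the 7 and in the median, though it passed the level filter only through the Longevity diet.

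**Figure D1:**
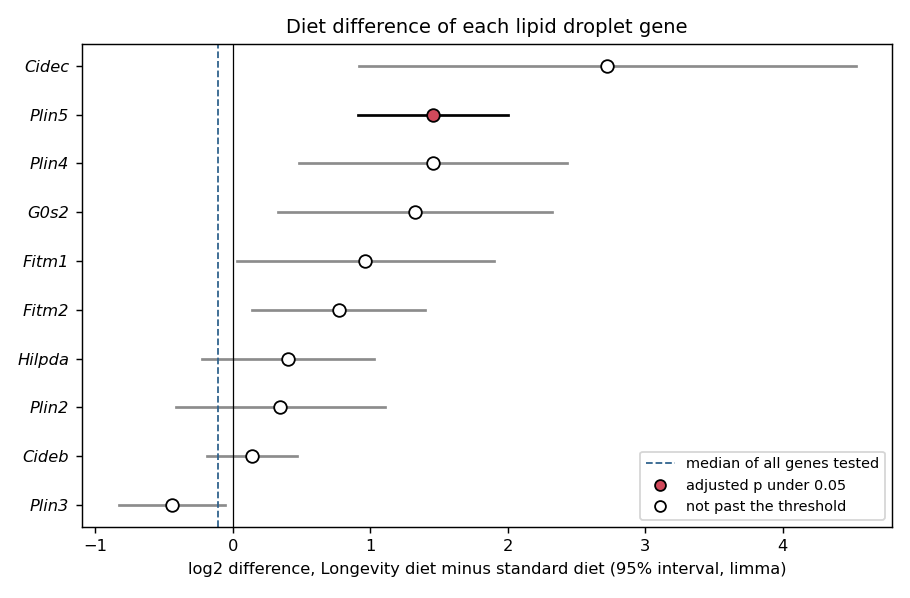
Log2 difference of each gene (x axis, Longevity diet minus standard diet) with its 95% interval from limma, filled where the adjusted p was under 0.05, and a dashed line at the median of all genes tested (-0.11). Plin5 is the filled point at 1.46, Cidec has the largest difference (2.72) with the widest interval, and Plin3 alone lies below 0.

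Among the coat genes, Plin5 (ENSMUSG00000011305.12, chromosome 17 from 56418601 to 56424596, minus strand) encodes a perilipin of oxidative tissues that also tethers droplets to mitochondria. Its level was 112 CPM in LD_405, 102 CPM in LD_406, 54.8 CPM in LD_442, 85.1 CPM in LD_513 and 75.0 CPM in LD_515, against 35.6 CPM in SD_403, 36.2 CPM in SD_500, 21.9 CPM in SD_501, 42.3 CPM in SD_502 and 21.2 CPM in SD_646. Every mouse on the Longevity diet lay above every mouse on the standard diet, LD_442 coming closest. The log2 difference was 1.46 (SE 0.25, 95% interval 0.91 to 2.00, limma adjusted p = 0.0122), or 2.74-fold, and an exact two-sided permutation test gave p = 0.00794, the smallest it can give. Any gene whose ranges stay apart gets that value in the exact test, Plin4 included, so it only restates the lack of overlap. Leaving out any 1 mouse kept the call (limma adjusted p = 0.00987 to 0.0474). Leaving out LD_406 and LD_515 together, the mice of that diet with the lowest sums of endothelial markers, gave a log2 difference of 1.41 with an adjusted p of 0.139 in limma, and 17 genes in all were then called.

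Plin4 (ENSMUSG00000002831.15, chromosome 17 from 56407591 to 56416803, minus strand), a perilipin best known from fat and muscle, starts 1797 bases past the end of Plin5. Its level was 4.76 CPM in LD_405, 5.54 CPM in LD_406, 11.9 CPM in LD_442, 12.4 CPM in LD_513 and 4.66 CPM in LD_515, against 0.81 CPM in SD_403, 2.23 CPM in SD_500, 4.22 CPM in SD_501, 4.23 CPM in SD_502 and 3.06 CPM in SD_646. The diets did not overlap, but by a narrow margin, and 3 of the Longevity diet mice sat just above SD_501 and SD_502. The order of mice differed from that of Plin5, since LD_442 and LD_513 were the highest in Plin4 and LD_405 and LD_406 in Plin5. Between the diets the log2 difference was 1.45 (SE 0.45, 95% interval 0.48 to 2.43), close to that of Plin5 in size, and it missed the threshold (limma adjusted p = 0.121). With weights per library it passed (limma adjusted p = 0.0224). Over 21 alternatives the limma adjusted p of Plin4 ran from 0.0224 to 0.282. Plin4 shares 17 bases with Hdgfl2 on the other strand, a gene at 24.0 CPM on the Longevity diet and 16.9 CPM on the standard diet, and with the strand setting of the libraries not given, reads there cannot be assigned.

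Plin3 (ENSMUSG00000024197.11, chromosome 17 from 56584476 to 56599873, minus strand), a perilipin made in most cells that moves onto droplets from the cytosol, lies 160 kb from Plin5 in the same stretch of the chromosome. Its level was 31.0 CPM in LD_405, 40.2 CPM in LD_406, 25.8 CPM in LD_442, 27.1 CPM in LD_513 and 28.4 CPM in LD_515, against 47.3 CPM in SD_403, 46.5 CPM in SD_500, 39.2 CPM in SD_501, 39.7 CPM in SD_502 and 33.8 CPM in SD_646. The other 4 mice of the Longevity diet lay under the whole standard diet range, and LD_406 alone fell inside it. Between the diets the log2 difference was -0.44 (SE 0.18, 95% interval -0.83 to -0.06, limma adjusted p = 0.220). None of the 8 genes listed between Plin5 and Plin3 was called (smallest limma adjusted p = 0.293), where 1.89% of all genes tested passed. Their log2 differences ran from -0.24 to 0.46, below the sizes seen for Plin4 and Plin5. Dpp9 alone among them was below 0, where 39.6% of all genes tested were above 0.

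Plin2 (ENSMUSG00000028494.13, chromosome 4 from 86566623 to 86588297, minus strand) is the main droplet coat of hepatocytes. It stood at 585 CPM in LD_405, 725 CPM in LD_406, 935 CPM in LD_442, 547 CPM in LD_513 and 742 CPM in LD_515, against 757 CPM in SD_403, 815 CPM in SD_500, 309 CPM in SD_501, 1007 CPM in SD_502 and 255 CPM in SD_646. All 5 values of the Longevity diet fell inside the range of the standard diet, in which SD_501 and SD_646 were low and the other 3 high. Between the diets the log2 difference was 0.34 (95% interval -0.42 to 1.10, limma adjusted p = 0.646), an interval that reaches from 0.75-fold to 2.15-fold.

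**Figure D2:**
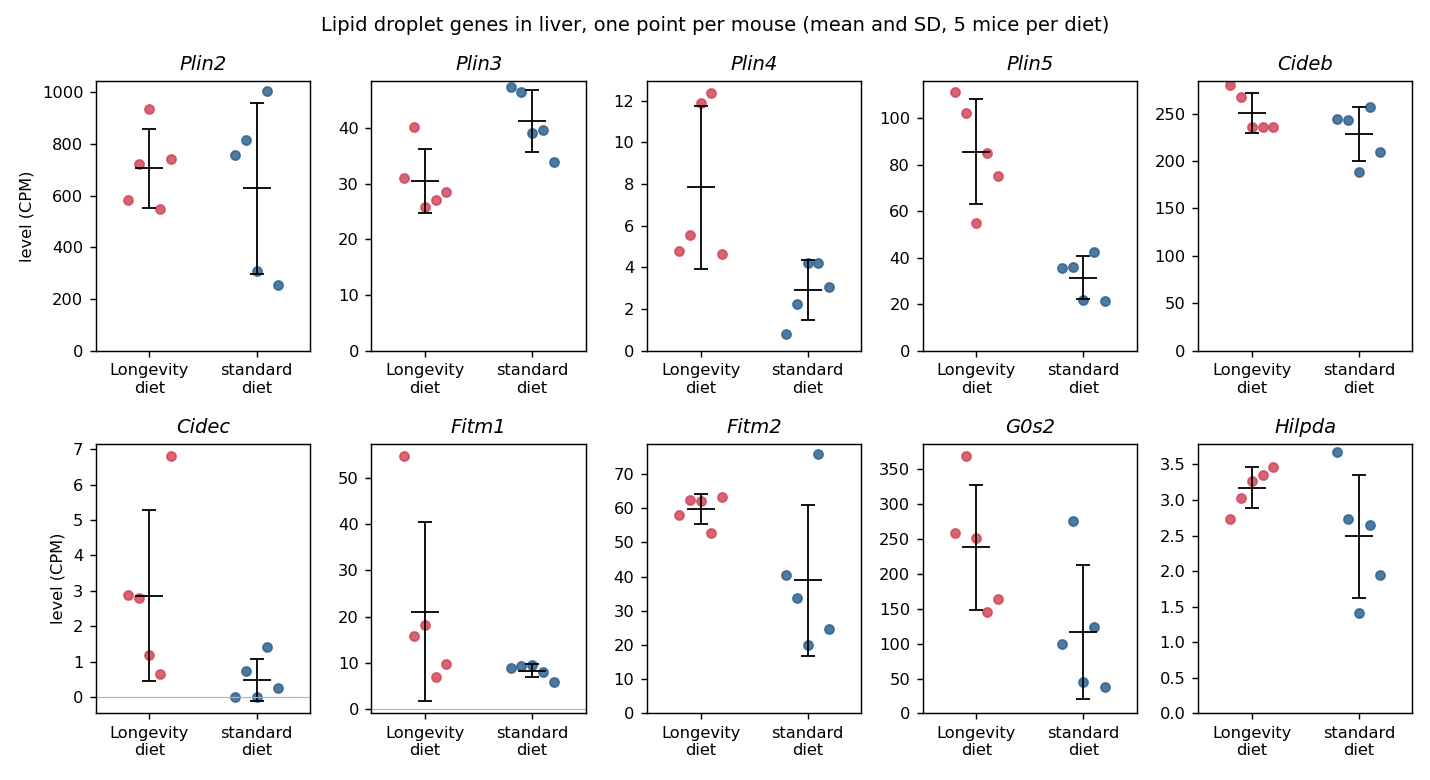
Level of each gene in CPM (y axes, each from 0 or just below it) in every mouse, Longevity diet at the left and standard diet at the right of each panel, with the mean and SD of 5 mice. Plin5 and Plin4 are the panels without overlap, and Plin2, Fitm2, G0s2 and Hilpda spread more widely on the standard diet.

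Neither CIDE gene passed the threshold. Cideb (ENSMUSG00000022219.11, chromosome 14 from 55991507 to 55995915, minus strand), the hepatocyte form, which supports the loading of lipid onto very low density lipoproteins, had 251 ± 21.1 CPM on the Longevity diet (236 to 280 CPM) and 229 ± 28.7 CPM on the standard diet (188 to 257 CPM). Its log2 difference of 0.14 had a 95% interval of -0.19 to 0.47 (limma adjusted p = 0.666), the narrowest interval of the 10 genes. Cidec (ENSMUSG00000030278.12, chromosome 6 from 113401595 to 113412721, minus strand), the form of fat cells that also appears in fatty liver, stood near the floor of detection in several mice. It had 2.89 CPM in LD_405, 2.79 CPM in LD_406, 1.18 CPM in LD_442, 0.666 CPM in LD_513 and 6.81 CPM in LD_515, against 0.745 CPM in SD_500, 1.40 CPM in SD_502 and 0.266 CPM in SD_646, while SD_403 and SD_501 were listed at 0. All 5 mice on the Longevity diet thus had Cidec reads, an estimated 23 to 177 of them, and LD_442 and LD_513 overlapped the standard diet. The log2 difference of 2.72 (SE 0.84, limma adjusted p = 0.119) missed the threshold and ran from 1.26 with 1 CPM added to 4.11 with 0.01 CPM added, since it rests on values near 0.

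Fitm2 (ENSMUSG00000048486.7, chromosome 2 from 163308299 to 163314549, minus strand), the widely expressed FIT gene needed for droplets to bud, was very even on the Longevity diet. Its level was 57.8 CPM in LD_405, 62.2 CPM in LD_406, 62.2 CPM in LD_442, 52.8 CPM in LD_513 and 63.4 CPM in LD_515, against 40.3 CPM in SD_403, 33.8 CPM in SD_500, 20.1 CPM in SD_501, 75.8 CPM in SD_502 and 24.8 CPM in SD_646. SD_502 lay above all 5 mice of the Longevity diet, and the other 4 of the standard diet lay below them. The log2 difference was 0.77 (SE 0.29, limma adjusted p = 0.191). Without SD_502 it was 1.05 and passed the threshold (limma adjusted p = 0.0302), so that 1 library decides the call, and it also passed with weights per library (limma adjusted p = 0.0486). Over 21 alternatives the limma adjusted p of Fitm2 ran from 0.0302 to 0.564.

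Fitm1 (ENSMUSG00000022215.7, chromosome 14 from 55813074 to 55814411, plus strand), known mainly from muscle, had 54.8 CPM in LD_405, 15.7 CPM in LD_406, 18.1 CPM in LD_442, 7.00 CPM in LD_513 and 9.70 CPM in LD_515. On the standard diet it had 8.82 CPM in SD_403, 9.25 CPM in SD_500, 9.47 CPM in SD_501, 8.06 CPM in SD_502 and 5.85 CPM in SD_646. LD_405 stood apart, 4 of 5 mice on the Longevity diet lay above all on the standard diet, and LD_513 fell inside that range. Between the diets the log2 difference was 0.97 (SE 0.43, limma adjusted p = 0.269), and without LD_405 it was 0.52 (limma adjusted p = 0.332). Over 21 alternatives the limma adjusted p of Fitm1 ran from 0.138 to 0.575. Of 12 skeletal muscle markers 4 were found, Acta1, Myh1, Mylpf and Tnni2. Ckm, Myh2, Myh4, Myl1, Tnnt3, Pvalb, Atp2a1 and Myoz1 were not analysed here. Those found summed to 0.0385 to 0.768 CPM on the Longevity diet and 0.325 to 1.71 CPM on the standard diet. Each of them was at 0 in at least 1 mouse. The sum in LD_405 was 0.768 CPM, the highest of its diet (0.0385 to 0.202 CPM in the others), beside 54.8 CPM of Fitm1 in that liver. The highest sum of the standard diet was that of SD_403, 1.71 CPM, beside 8.82 CPM of Fitm1. The part of muscle in the Fitm1 values was not tested.

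The ATGL inhibitors had higher means on the Longevity diet with overlap between the diets. G0s2 (ENSMUSG00000009633.4, chromosome 1 from 192954469 to 192955525, minus strand) had 258 CPM in LD_405, 369 CPM in LD_406, 251.97 CPM in LD_442, 146 CPM in LD_513 and 165 CPM in LD_515, against 99.3 CPM in SD_403, 276 CPM in SD_500, 44.8 CPM in SD_501, 124 CPM in SD_502 and 38.1 CPM in SD_646. SD_500 lay among the highest mice of the Longevity diet, and the other 4 of the standard diet lay below that whole diet. The log2 difference was 1.32 (SE 0.46, 95% interval 0.33 to 2.32, limma adjusted p = 0.160). With weights per library it was 0.74 (limma adjusted p = 0.519), without SD_646 it was 1.02 (limma adjusted p = 0.284) and without SD_500 it was 1.73 (limma adjusted p = 0.0579). G0s2 lies wholly inside the span of Lamb3 on the other strand, a gene at 1.06 to 8.52 CPM over the 10 mice. Hilpda (ENSMUSG00000043421.9, chromosome 6 from 29272487 to 29275445, plus strand), which is induced by low oxygen and by fatty acids, stood at 3.17 ± 0.289 CPM on the Longevity diet (2.74 to 3.46 CPM) and 2.49 ± 0.858 CPM on the standard diet (1.42 to 3.68 CPM). The log2 difference was 0.40 (95% interval -0.23 to 1.03, limma adjusted p = 0.503).

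**Figure D3:**
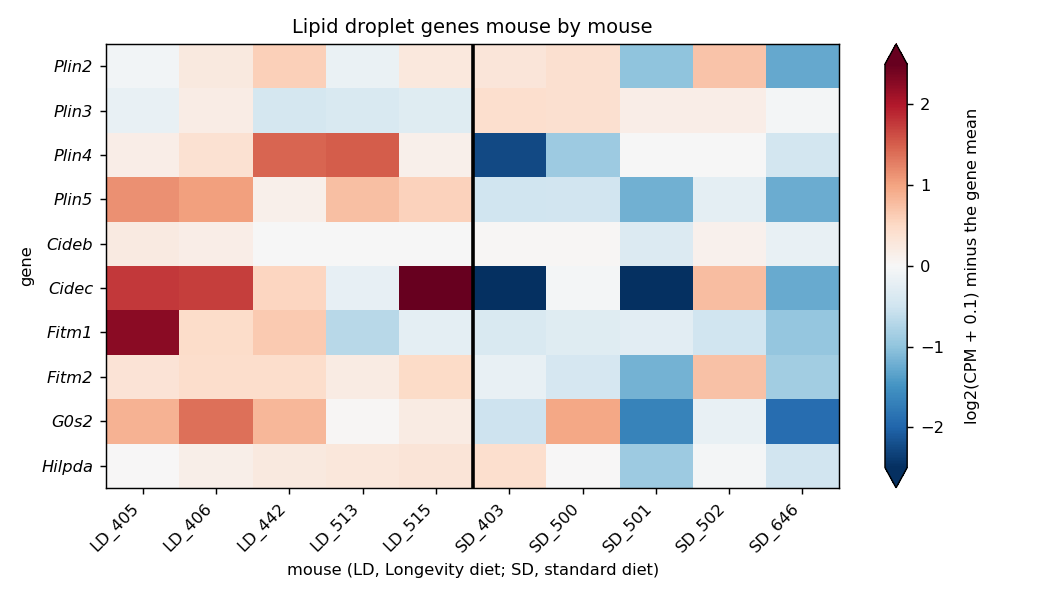
log2(CPM + 0.1) of each gene (rows) in each mouse (columns) minus the mean of that gene over the 10 mice, red above and blue below it, with Longevity diet mice left of the line. The row of Plin5 changes colour at the line, SD_501 lies below the gene mean in 9 rows and SD_646 in 10, and the values of Cidec beyond the colour scale take its end colours.

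Set per length, as CPM per kb of annotated exon (GENCODE M21), the order of the genes was led by G0s2, Plin2 and Cideb on both diets. On the Longevity diet G0s2 averaged 273 ± 102 CPM per kb, Plin2 201 ± 43.6 CPM per kb and Cideb 169 ± 14.2 CPM per kb, and these neighbours overlapped. Plin5 followed at 41.1 ± 10.7 CPM per kb with no overlap with Cideb, then Fitm1 at 21.7 ± 19.9, Fitm2 at 15.0 ± 1.11, Plin3 at 8.06 ± 1.52, Hilpda at 2.87 ± 0.262, Cidec at 1.54 ± 1.30 and Plin4 at 1.36 ± 0.679 CPM per kb. On the standard diet the order was Plin2 at 179 ± 94.0, Cideb at 154 ± 19.3, G0s2 at 134 ± 110.5, Plin5 at 15.1 ± 4.51, Plin3 at 10.9 ± 1.48, Fitm2 at 9.82 ± 5.56, Fitm1 at 8.54 ± 1.51, Hilpda at 2.25 ± 0.778, Plin4 at 0.504 ± 0.250 and Cidec at 0.260 ± 0.322 CPM per kb. There G0s2 and Plin5, Fitm1 and Hilpda, and Hilpda and Plin4 were the neighbours whose ranges did not overlap. Of the perilipin mRNA per length, Plin5 made up 16.9 ± 5.63% on the Longevity diet (8.72 to 23.3%) and 8.12 ± 2.08% on the standard diet (6.38 to 11.04%). Plin2 made up 79.3 ± 6.19% on the Longevity diet and 85.1 ± 5.21% on the standard diet, and Plin3 made up 3.25 ± 0.666% on the Longevity diet and 6.45 ± 2.93% on the standard diet.

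**Figure D4:**
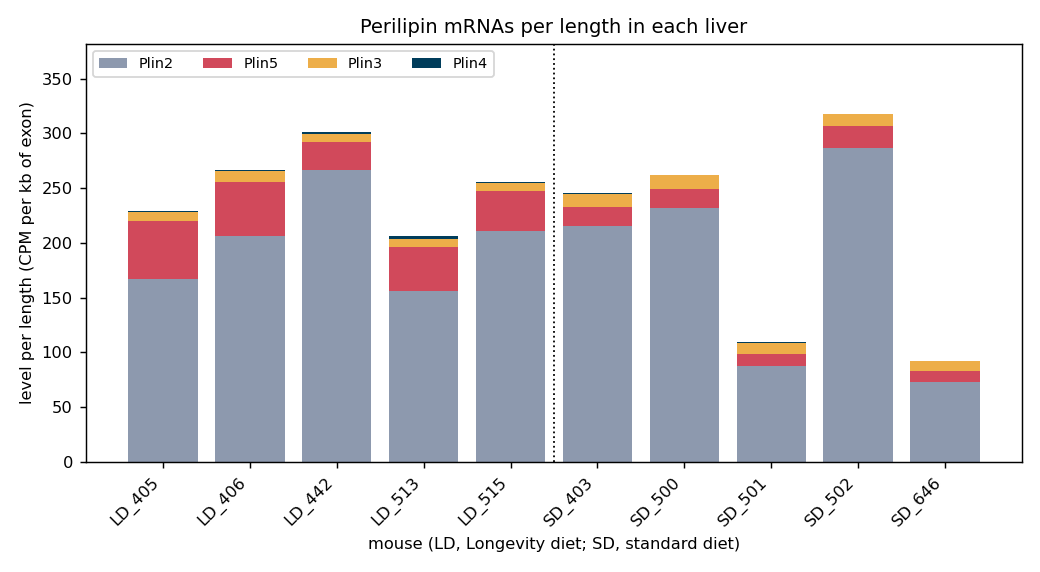
Summed level of the perilipin mRNAs in each mouse in CPM per kb of exon, split by gene, with Longevity diet mice left of the dotted line. The Plin5 segment is larger in all 5 mice of the Longevity diet than in any on the standard diet, and the whole bar, most of it Plin2, is lowest in SD_501 and SD_646.

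Ratios of 2 genes within a liver do not depend on how its library was scaled, apart from the 0.1 CPM added to each gene, and 8 were compared between the diets by a two-sided exact permutation test (smallest possible p = 0.00794). None passed after adjustment over the 8 ratios, where a single ratio at the smallest possible p could not have passed alone. The ratio of Plin5 to Plin2 was higher on the Longevity diet by 1.11 on the log2 scale (2.16-fold, exact permutation p = 0.0317, adjusted p = 0.106), with 0.0587 to 0.191 on the Longevity diet and 0.0421 to 0.0834 on the standard diet, and LD_442 lay inside the range of the standard diet. The ratio of Cidec to Cideb differed by 2.58 (exact permutation p = 0.0397, adjusted p = 0.106). Cidec was at 0 in SD_403 and SD_501, so the ratios of those mice rest on the 0.1 CPM added. Over 13 alternatives that difference ran from 1.12 to 3.97. Cidec passed the level filter only through the Longevity diet, so its ratio is a description. Plin4 to Plin2 differed by 1.11 (exact permutation p = 0.175, adjusted p = 0.279), Plin3 to Plin2 by -0.79 (exact permutation p = 0.0873, adjusted p = 0.175) and Fitm1 to Fitm2 by 0.19 (exact permutation p = 0.762, adjusted p = 0.849).

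Pnpla2 encodes ATGL, the lipase that G0S2 and HILPDA inhibit, and had 147 ± 34.0 CPM on the Longevity diet and 62.1 ± 11.1 CPM on the standard diet. The ratio of Hilpda to Pnpla2 was lower on the Longevity diet by a log2 difference of -0.83 (0.0134 to 0.0281 on the Longevity diet and 0.0262 to 0.0579 on the standard diet, exact permutation p = 0.0159, adjusted p = 0.106). The ratio of G0s2 to Pnpla2 had a log2 difference of 0.10, with 1.22 to 2.54 on the Longevity diet and 0.759 to 4.31 on the standard diet (exact permutation p = 0.849, adjusted p = 0.849), and its sign turned when LD_406, SD_501 or SD_646 was left out. Plin5, which holds ATGL and its activator apart in the resting state, had a ratio to Pnpla2 of 0.428 to 0.712 on the Longevity diet and 0.405 to 0.566 on the standard diet (log2 difference 0.23, exact permutation p = 0.238, adjusted p = 0.317).

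The spread between mice is described here without a test. The SD of the log2 values of Fitm2 was 0.11 on the Longevity diet and 0.74 on the standard diet, that of Hilpda 0.13 on the Longevity diet and 0.50 on the standard diet, and that of Plin2 0.31 on the Longevity diet and 0.90 on the standard diet. The SD was smaller on the Longevity diet for 8 of the 10 genes, and for 38.8% of all genes tested. It was at least 3 times smaller for 2 of the 10 (2.79% of all genes tested) and at least 3 times larger for 1 (7.13%). The median SD over the 10 genes was 0.35 on the Longevity diet and 0.62 on the standard diet, and over all genes tested 0.46 on the Longevity diet and 0.38 on the standard diet. Fitm1 went the other way, with 1.13 on the Longevity diet, where LD_405 stood apart, and 0.28 on the standard diet. SD_501 and SD_646 were the lowest pair of the standard diet in 7 of 10 members, as in 26.2% of all genes tested. Those mice also had the lowest sums over 22 PPAR-alpha target genes (5476 and 5383 CPM, against 6247 to 9884 CPM in the other 3 of that diet and 13236 to 15931 CPM on the Longevity diet).

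**Figure D5:**
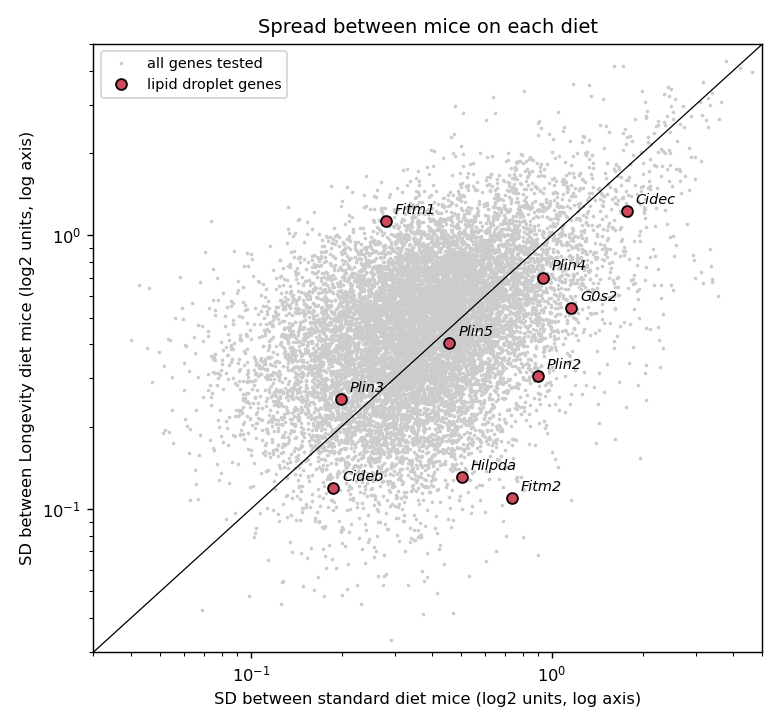
SD of log2(CPM + 0.1) between the 5 Longevity diet mice (y axis) and between the 5 standard diet mice (x axis), both on log axes, for all genes tested (grey) and the 10 lipid droplet genes (red). Points under the diagonal spread less on the Longevity diet, and Fitm2 (0.11 against 0.74) and Hilpda (0.13 against 0.50) lie furthest under it among the 10, with Fitm1 furthest above.

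Likeness was measured as the mean absolute difference between the centred log2 values of 2 genes over the 10 mice. The gene nearest to Plin5 was Pnpla2 (0.21), followed by the phosphate transporter gene Slc20a1 (0.23, 55.6 ± 9.49 CPM on the Longevity diet and 22.5 ± 7.13 CPM on the standard diet) and Gm25432 (0.23), where the median over all genes was 0.84. The genes nearest to Plin2 were Lrch4 (0.18), 2310057M21Rik (0.19) and Trmt12 (0.21), with a median of 0.60. Among the members, Cideb and Hilpda were nearest (0.26), then Plin3 and Cideb (0.30), Plin2 and Hilpda (0.32) and Plin2 and Fitm2 (0.33). Genes that vary little are near to each other by this measure.

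Other genes of the droplet were looked at in lists named with results of these data known. Over all genes tested 0.661% rose and 1.23% fell, and the median log2 difference was -0.11. Of 26 measured other droplet proteins 2 rose and 1 fell (median log2 difference 0.10), and those that rose are sterol synthesis enzymes found on droplets, Nsdhl (1.29, limma adjusted p = 0.0144) and Lss (1.12, limma adjusted p = 0.0314), with Sqle at 1.24 (limma adjusted p = 0.0658). Ethe1, a mitochondrial sulfur dioxygenase, fell by 1.16 on the log2 scale (limma adjusted p = 0.0376). These 3 calls of the list became 0 without LD_406, 1 without any of LD_513, LD_515, SD_403, SD_500 or SD_501, and 5 with weights per library. Of 17 triglyceride lipases and cofactors 1 rose, Pnpla2 (1.23, limma adjusted p = 0.00839), and 1 fell, the carboxylesterase Ces3b (-3.14, limma adjusted p = 0.00283), with a median of 0.15. Ces3a was at -1.11 (limma adjusted p = 0.0634) and the monoglyceride lipase Mgll at 1.07 (limma adjusted p = 0.110). The 2 calls of this list became 3 without LD_442, 4 without SD_502, 5 with weights per library and 1 without LD_406 and LD_515. Of 12 triglyceride synthesis genes 1 rose and 0 fell (median 0.13). That was Lpin1, a phosphatidate phosphatase (1.76, limma adjusted p = 0.00360), while Agpat3 was at 0.68 (limma adjusted p = 0.104), Lpin2 at 0.76 (limma adjusted p = 0.136) and Gpat3 at 0.34 (limma adjusted p = 0.469). The single call of this list became 2 without LD_405 or SD_502 and with median-of-ratios scaling, 3 with weights per library and 0 without LD_406 and LD_515.

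Genes of regulation were listed too. Over all genes tested 0.661% rose, 1.23% fell and 17.5% had an unadjusted p under 0.05, with a median log2 difference of -0.11. Of 22 PPAR-alpha target genes 6 rose and 0 fell, with a median log2 difference of 0.79, and the smallest p-values were those of Fgf21 (3.29, limma adjusted p = 0.00356), Pex11a (1.29, limma adjusted p = 0.00759), Acot2 (2.01, limma adjusted p = 0.0114) and Hadhb (0.76, limma adjusted p = 0.0300). The 6 calls became 3 without any of LD_406, LD_442, LD_515 or SD_403 and with the leading digit of the mouse number as a covariate. They became 4 without LD_513 and without a level filter, and 0 without LD_406 and LD_515 together. With median-of-ratios scaling they became 8 and with weights per library 7. Of 7 measured genes tied to PPAR-gamma and fatty liver 1 rose, the mitochondrial carrier gene Ucp2 (1.06, limma adjusted p = 0.0262), and 0 fell (median 0.56). The fat synthesis gene Acaca was at 0.87 (limma adjusted p = 0.172), Mgst3 at 0.68 (limma adjusted p = 0.235) and Pparg at 0.52 (limma adjusted p = 0.355). The single call of this list was lost without any of LD_515, SD_500, SD_501 or SD_646, without LD_406 and LD_515 together and with the covariate, and weights per library gave 2. The fatty acid uptake gene Cd36, outside the rule for named genes, stood at 124 ± 36.2 CPM on the Longevity diet and 85.7 ± 28.4 CPM on the standard diet (limma adjusted p = 0.367). Of 18 hypoxia-induced genes 0 rose and 1 fell (median -0.10), Ndrg1 at -1.47 (limma adjusted p = 0.0298), while Pfkfb3 was at 0.97 (limma adjusted p = 0.154), Ldha at 0.55 (limma adjusted p = 0.161) and Adm at -1.38 (limma adjusted p = 0.173). The single call of the hypoxia list was lost without any of LD_406, LD_513, SD_403, SD_500 or SD_501, without LD_406 and LD_515 together and with the covariate, while quantile normalization gave 2 calls and weights per library 3. Of 19 regulators 0 passed in limma and 3 had an unadjusted p under 0.05, namely Mlxipl (-0.66, limma adjusted p = 0.167), Esrra (0.60, limma adjusted p = 0.226) and Creb3l3 (0.55, limma adjusted p = 0.234). Ppara itself, outside the naming rule, stood at 42.3 ± 23.8 CPM on the Longevity diet and 45.9 ± 33.5 CPM on the standard diet (limma adjusted p = 0.962).

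Droplet genes are also made by cells other than hepatocytes, and in bulk liver fewer cells of a type cannot be told apart from less RNA per cell. Of 14 adipocyte markers 8 were found, and Adipoq, Lep, Plin1, Retn, Cidea and Slc36a2 were not analysed here. Their summed level was 1108 to 3195 CPM on the Longevity diet and 2311 to 3699 CPM on the standard diet, most of it from Pck1 and Car3, which liver makes. The log2 difference was -1.43 for Car3 (limma adjusted p = 0.0523) and 0.52 for Pparg (limma adjusted p = 0.355). It was 0.32 for Lipe (limma adjusted p = 0.490) and 0.77 for Lpl (limma adjusted p = 0.706). Of the 6 adipocyte markers tested, 4 were above 0 and 2 below. Outside the naming rule, Cfd was at 0.0462 ± 0.103 CPM on the Longevity diet and 0.169 ± 0.342 CPM on the standard diet. Fabp4, also outside it, was at 6.91 ± 2.87 CPM on the Longevity diet and 6.79 ± 4.86 CPM on the standard diet. Markers of sinusoidal endothelium (12 of 12 found) summed to 151 to 316 CPM on the Longevity diet and 331 to 468 CPM on the standard diet. On the Longevity diet the sums were 353 to 639 CPM for stellate cell and fibroblast markers (13 of 13 found), 348 to 966 CPM for Kupffer cell and macrophage markers (16 of 16), 28.7 to 49.8 CPM for cholangiocyte markers (8 of 8) and 1.98 to 6.76 CPM for neutrophil markers (11 of 11). On the standard diet the sums of the same lists were 545 to 826 CPM, 547 to 959 CPM, 28.0 to 81.3 CPM and 5.48 to 121 CPM. The endothelial sums did not overlap between the diets. Hepatocyte markers (11 of 12) summed to 161889 to 218822 CPM on the Longevity diet and 117411 to 162193 CPM on the standard diet, most of it from Alb. Of the 11, 7 had a log2 difference below 0 and 4 above, with a median of -0.02. Over all genes tested 0.661% rose and 1.23% fell, and 17.5% had an unadjusted p under 0.05, 11.6% with a lower value on the Longevity diet. Of the cell type markers tested, 0 rose and 1 fell among hepatocyte, stellate cell and neutrophil markers each. In limma 0 passed among those of adipocytes (1 of 6 at an unadjusted p under 0.05), Kupffer cells (1 of 16), endothelium (9 of 12) and cholangiocytes (1 of 5). The log2 difference was below 0 for 12 of 12 endothelial, 12 of 13 stellate cell and 14 of 16 Kupffer cell markers. It was below 0 for 6 of 6 neutrophil and 2 of 5 cholangiocyte markers tested, and above 0 for 39.6% of all genes tested. None of these markers was at 0 in all 10 mice. The part of these markers in the results was not tested.

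Estimated depth was 30.0 ± 6.46 M reads on the Longevity diet and 42.5 ± 4.35 M on the standard diet (M, 1000000 reads), 24.7 to 45.7 M over the 10 libraries. At that depth 3 reads correspond to 0.0657 to 0.121 CPM, a floor that covers counting error only. The part of this difference in depth in the results was not tested. LD_405 had the lowest value of its diet in 47.7% of the genes tested. Over all genes 87 rose and 162 fell. With median-of-ratios scaling the median log2 difference of all genes was -0.01 instead of -0.11, and 151 genes were higher and 138 lower, and quantile normalization gave 151 higher and 148 lower. None of the 10 members changed sign under either. Nothing in the labels says how mice were housed, so an effect of shared cages could not be examined. The p-values treat the 10 mice as independent, and those of limma set the diet difference against the spread between mice of the same diet.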

How the data were processed

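The deposited table gives 1 column per mouse in CPM to which the authors added 0.0001. After subtracting it every column totals 1000000, so the authors scaled to the listed genes. Per the submitters' processing notes STAR, Partek and mm39 were used, with no versions or roles given. Counter, annotation release and strand setting are not given in the sources used here. Ends were taken as 1 below the printed stop, as in all 15 mitochondrial genes compared with GENCODE M21.

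Depth was estimated from the step between low values. Between 84.4% and 87.9% of values under 100 reads were within 0.1 of a whole read, below the 95% set for treating them as counts, so no count test was run. Values were analysed as log2(CPM + 0.1) with limma 3.58.1 (trend, robust, statmod 1.5.0, R 4.3.3), diet as the only term, and with exact permutation tests (SciPy 1.17.1) over every way to split the 10 mice into groups of 5. The limma step was tested on simulated data with known fold changes. The members, lists and tests were chosen with earlier results of these data known. Named genes are all members, up to 4 genes of each list with the smallest p and the 3 genes nearest to Plin5 and Plin2. Exon lengths come from GENCODE M21 (GRCm38) and upstream sequences from RefSeq GRCm38.p6, where all 10 symbols matched. Alternatives covered the pseudocount, level filter, scaling, weights, a covariate, voom and leaving out mice.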

Additional observations from a re-analysis of the deposited data

Results flagged for a closer look

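Among the 20 groups of 5 values examined (10 genes on 2 diets), 1 value stood apart. Fitm1 in LD_405, at 54.8 CPM, had a gap to the next mouse of its diet that made up 0.768 of the whole range of that diet, above the limit of 0.71 for 5 values. Chance gives such a value in about 1 of 20 groups. On the log2 scale the gap was 0.541 of the range, under the limit, and the CPM scale was chosen after both had been seen.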

How the results depend on the processing

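No paired analysis was possible because no mouse number occurs on both diets. All 10 members passed the level filter, so the test planned for members under it was not needed. None of the members changed the sign of its log2 difference in 19 to 21 alternatives each, and Plin5 ran from 1.27 to 1.61 and kept its call in 20 of 21. The count of members called was 1, with 3 under weights per library (Plin4, Plin5 and Fitm2), 0 without LD_406 and LD_515, and 1 to 2 when each mouse was left out in turn. The 249 genes called over the whole table became 805 with weights per library, 130 with the leading digit of the mouse number as a covariate, 17 without LD_406 and LD_515, and 87 to 380 when each mouse was left out. The lowest of these came without LD_406 (87), SD_403 (96), LD_515 (106) and SD_500 (107), and the counts were 148 without SD_501, 163 without SD_646 and 380 without LD_405. No ratio passed its threshold in any alternative. A single ratio at the smallest possible p could not have passed alone, and leaving out mice raises that smallest p. The log2 difference of G0s2 to Pnpla2 was -0.018 without LD_406 and LD_515 and -0.14 to 0.49 when each mouse was left out, and that of Fitm1 to Fitm2 was -0.26 to 0.45, turning without LD_405 (-0.26) or SD_502 (-0.09). The G0s2 ratio turned without LD_406 (-0.08), SD_501 (-0.11) or SD_646 (-0.14). The cause of these changes was not tested. Depth limits Cidec most, at 0 to 177 estimated reads per library. A value for Cidec with a filter of 5 CPM or without LD_406 and LD_515, and for Hilpda with a filter of 5 CPM, could not be given because they then fell under the filter.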
